A study of Rattus norvegicus with 8 samples.

Results

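The genes that license, start and carry out DNA replication, together with the cyclins and E2F factors that open S phase, were followed in rat alveolar type II (ATII) cells given constitutively active HIF1a. The 35 genes were listed by name, and 32 of them were matched to a probe set that the platform annotation gives to that gene alone; Rrm1, Tk1 and E2f2 were not analysed here. The 32 genes were 14 of origin licensing and the replicative helicase, 10 of the polymerases and the fork, 2 of nucleotide supply and 6 of the E2F and cyclin group, of 18166 genes measured in all. Genes with more than 1 probe set were read from the brightest on average over the 8 arrays. ATII cells make lung surfactant; they were freshly isolated from male Sprague Dawley rats, 4 in number, and every rat gave 1 AdGFP well and 1 AdHIF1a well, extracted on a date of its own. AdGFP is an adenovirus that carries green fluorescent protein, and AdHIF1a is one that carries a constitutively active mutant of HIF1a, the subunit of hypoxia-inducible factor that oxygen controls. Both groups took up virus for 3 h (multiplicity of infection 20, 2% fetal bovine serum). The cells were then plated with 5% rat serum on a gel of 80% rat tail collagen and 20% Matrigel, and RNA was taken 24 h later. Every well analysed here had met virus. No source used here gives the rats' age, the viral promoters or the share of cells transduced.

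Before S phase, the origin recognition complex with Cdc6 and Cdt1 loads the MCM2-7 ring onto DNA, and Cdc45 and the GINS complex then turn it into the active helicase. Cyclin D with its kinases, and then cyclin E with Cdk2, inactivate the retinoblastoma protein, so that E2F factors can switch on much of this gene set. ATII cells divide rarely in the uninjured lung and act as progenitors after injury. HIF1a is known to slow the cell cycle in many cells, and apart from transcription its protein has been reported to bind Cdc6 and MCM proteins.

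All values below are log2 signals of Affymetrix arrays, and a difference is AdHIF1a minus AdGFP within a rat, in log2 units, given with the standard error (SE) of the paired limma fit. The threshold for a call was an adjusted p (Benjamini-Hochberg, over all 18166 genes) under 0.05. The n is 4 rats, each with 1 well in both groups, except where a rat was left out. Array medians in rats 1 to 4 were 5.13, 5.0, 5.07 and 5.04 with AdGFP and 5.02, 5.19, 5.16 and 5.2 with AdHIF1a. The AdHIF1a median was thus below the AdGFP median in rat 1 and above it in rats 2 to 4. Upper quartiles lay between 7.62 and 7.68. The HIF target genes Slc2a1 and Pdk1 rose by 1.19 ± 0.09 and 1.98 ± 0.09 (limma adjusted p = 0.00296 and 0.000957), while the rat Hif1a probe set was lower by -0.48 ± 0.08 (adjusted p = 0.0217; 0.0875, 0.0870 and 0.113 without rats 2, 3 and 4); no source used here gives the species of the transgene or the probe sequences, and Hif1a therefore does not check the labels. Cell-type markers moved between the groups as well. Of 11 ATII markers, 2 rose and 5 fell (7 below 0, median difference -0.39), although their summed level, led by Cldn18, was 14.54 to 14.87 in AdGFP wells and 14.44 to 14.78 in AdHIF1a wells. Of 10 markers of alveolar type I cells, led by Ager, 8 fell and 10 were below 0, with a median of -1.015, and their sums of 14.30 to 14.73 and 13.35 to 13.86 did not overlap. Of 12 macrophage markers, 1 fell, 9 were below 0 and the median was -0.21, while their sums of 12.88 to 13.17 and 13.11 to 13.39 were carried by Lyz2 (mean 12.74), which rodent ATII cells also make. Of 4 airway markers, 2 fell (3 below 0, median -0.43), and the sums of 12.59 to 12.74 and 12.45 to 12.82 were carried by Scgb1a1. None of the 8 fibroblast, 5 endothelial and 7 lymphocyte markers was called by limma. Of these, 6, 1 and 7 were below 0, with median differences of -0.07, 0.065 and -0.245. The brightest of each list, Col1a1, Cdh5 and Nkg7, had means of 5.79, 5.295 and 6.3. The part of these shifts in the results below was not tested. In bulk samples such as these, fewer cycling cells and less of an RNA per cell cannot be told apart.

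Of the 32 replication and G1/S genes, 2 rose and 1 fell in AdHIF1a wells. Cdc6, the licensing factor, was 3.59-fold higher (95% interval 1.88 to 6.87), Cdk2, the S-phase kinase, was 1.46-fold higher (1.22 to 1.75), and Rrm2, the regulatory subunit of ribonucleotide reductase, was 3.67-fold lower (2.00 to 6.73). The other 29 genes did not pass the test. The 3 calls are 9.38% of the genes, against 13.4% called among all genes (5.68% higher and 7.77% lower), so their number does not set the list apart. The median difference was -0.05, against -0.005 over all genes; it was -0.21 without rat 1 and 0.02 to 0.03 without each other rat. By role, the median was 0.10 for the 14 licensing and helicase genes (-0.04 without rat 1), -0.11 for the 10 polymerase and fork genes, -1.07 for the 2 nucleotide genes and -0.14 for the 6 E2F and cyclin genes. The polymerase and fork median was -0.21 without rat 1, -0.09 without rat 2, 0.01 without rat 3 and -0.06 without rat 4. That of the E2F and cyclin genes was -0.34, -0.0017, -0.12 and -0.09, and that of the licensing and helicase genes without rats 2 to 4 was 0.17, 0.225 and 0.12. The arrays of the 2 groups did not overlap for 6 genes (Cdc6, Mcm6, Prim1, Ccne2 and Cdk2 higher, Rrm2 lower), or 18.75%, against 22.5% of all genes (10.3% with all AdHIF1a arrays above and 12.2% with all below).

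The rats did not agree. The median difference of the 32 genes was 0.58 in rat 1 and -0.13, -0.25 and -0.16 in rats 2 to 4, and 5 genes were lower in the AdHIF1a well of rat 1, against 20, 25 and 20 in the other rats. The odd well was the AdGFP well of rat 1, which gave the lowest of the 4 AdGFP signals for 31 of the 32 genes. Among all genes it was the lowest for 33.2%. The exception was Orc6, an origin recognition subunit, at 6.59 in rat 1 and 6.49 in rat 2. The AdHIF1a well of rat 1 was the lowest of its group for 4 genes and the highest for 7. Rat 1 also gave the highest within-rat difference for 30 of the 32 genes, against 35.4% of all genes, the exceptions being Ccnd1 and Orc6. In the AdGFP well of rat 1 the summed ATII markers stood at 14.87, the highest of the 4, and 0 of 11 ATII markers were lowest there, while 6 of 12 macrophage markers, 3 of 8 fibroblast markers and 0 of 7 lymphocyte markers were. The median macrophage marker differed by -0.62 in rat 1 and by -0.12, -0.13 and -0.11 in rats 2 to 4. The median lymphocyte marker differed by -0.46 in rat 1 and by 0.06, -0.25 and -0.17 in rats 2 to 4. The part of either in the result was not tested. Without rat 1 the limma fit called 8 of the 32 genes, 25%, against 11.0% of all genes (4.27% higher and 6.78% lower): Cdc6, Ccne2 and Cdk2 higher, and Rrm2, Uhrf1, Pole, Gins1 and Pola1 lower. Rat 1 was picked out as the odd one from these same values. It was highest for 30 of the 32 genes, so leaving it out lowers their mean difference by construction. The count without it is a description. Without rat 2, 3 or 4 it called 0, with 7, 9 and 7 genes at an unadjusted p under 0.05. Calls among all 18166 genes were fewer in these fits too, at 315 higher and 246 lower without rat 2. Without rat 1 they were 775 higher and 1231 lower. They were 517 and 600 without rat 3, and 324 and 301 without rat 4.

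**Figure D1:**
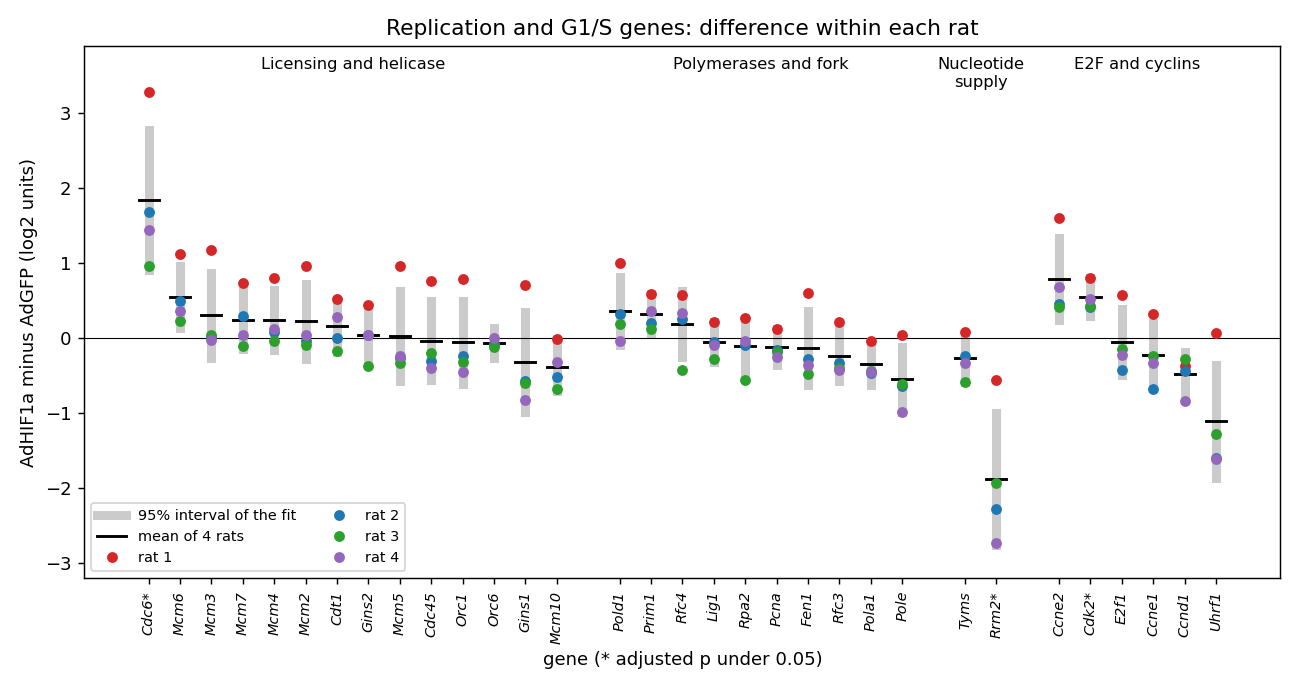
Within-rat differences (AdHIF1a minus AdGFP, log2 units, vertical axis) of the 32 measured genes in 4 role groups, with a point per rat, a black bar for the mean of 4 rats and a grey band for the 95% interval of the limma fit. The red points of rat 1 are the highest for 30 of 32 genes, and Cdc6, Rrm2 and Cdk2 carry the asterisk of an adjusted p under 0.05.

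Promoters of 27 of the 35 listed genes were found in the RefSeq promoter table (GRCr8), as 29 windows of 250 bases before to 50 bases after a transcription start, 3 of them for Uhrf1; those of Mcm4, Cdc6, Orc1, Rrm2, Ccnd1, Ccne2, E2f1 and E2f2 were not used here. The E2F-type motifs TTTCCCGC, TTTCGCGC, TTTGCCGC and TTTGGCGC were searched on both strands, and 2 of them can overlap on opposite strands. At least 1 was present in 14 of the 29 windows, or 48.3%. This compares with 2.1% of all 33469 promoter windows and 3.0% of the 16050 windows of genes measured here. The core letters of HIF sites, ACGTG or GCGTG on either strand, were present in 72.4% of the 29 windows. They were present in 41.6% of all windows and in 49.9% of those of genes measured here. The letters CCAAT, searched in the same way, were also in 72.4% of the 29 windows, against 37.5% of all windows and 37.5% of those of genes measured here. Differences of genes with and without HIF letters were not compared. By role, E2F-type letters were found for 7 of 11 licensing and helicase genes, 5 of 10 polymerase and fork genes, 1 of 3 nucleotide genes and 1 of 3 E2F and cyclin genes. The measured genes with such a motif had a median difference of -0.08 (14 genes, -1.10 to 0.56) and those without one -0.03 (11 genes, -0.38 to 0.55). The low end of the first set is Uhrf1, whose windows held 0, 0 and 2 motifs. Cdc6 and Rrm2, without a window here, are in neither set. A match in these letters is a description and shows no bound factor. The windows of 4 genes are printed because they show these letters in a pair of helicase subunits, in a polymerase subunit that was lower with AdHIF1a in rats 2 to 4, and their absence in the window of the kinase gene that rose. They lie at chr19:13488563-13488862 (+ strand), chr13:42404303-42404602 (- strand), chr12:52053613-52053912 (- strand) and chr7:1721829-1722128 (- strand) in GRCr8 and are written 5′ to 3′ along the gene, with the E2F-type motifs in capitals.
Mcm5: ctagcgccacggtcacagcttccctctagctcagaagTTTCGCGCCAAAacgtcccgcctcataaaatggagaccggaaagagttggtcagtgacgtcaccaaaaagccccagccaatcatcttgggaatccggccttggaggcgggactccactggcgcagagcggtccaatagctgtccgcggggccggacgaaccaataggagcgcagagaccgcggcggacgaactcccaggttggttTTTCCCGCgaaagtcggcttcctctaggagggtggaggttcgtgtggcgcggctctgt
Mcm6: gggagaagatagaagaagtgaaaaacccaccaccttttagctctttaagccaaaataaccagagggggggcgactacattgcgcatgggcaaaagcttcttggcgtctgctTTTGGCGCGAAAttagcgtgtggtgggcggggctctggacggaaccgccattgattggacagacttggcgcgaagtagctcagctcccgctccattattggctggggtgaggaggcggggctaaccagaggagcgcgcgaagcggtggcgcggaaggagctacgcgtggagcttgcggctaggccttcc
Pole: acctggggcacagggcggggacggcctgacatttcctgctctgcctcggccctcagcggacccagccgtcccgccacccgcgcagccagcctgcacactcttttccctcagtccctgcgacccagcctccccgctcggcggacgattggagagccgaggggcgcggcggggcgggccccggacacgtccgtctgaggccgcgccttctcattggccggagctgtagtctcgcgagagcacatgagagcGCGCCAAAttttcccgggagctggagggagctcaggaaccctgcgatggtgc
Cdk2: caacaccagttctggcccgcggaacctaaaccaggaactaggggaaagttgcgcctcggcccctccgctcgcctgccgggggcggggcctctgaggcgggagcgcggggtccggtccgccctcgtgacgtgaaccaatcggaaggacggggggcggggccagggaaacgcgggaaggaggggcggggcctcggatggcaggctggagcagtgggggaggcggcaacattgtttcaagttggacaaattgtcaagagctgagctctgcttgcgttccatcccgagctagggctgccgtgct
In Mcm5 an overlapping pair of motifs began 213 and 209 bases before the start and a further motif 8 bases before it. In Mcm6 an overlapping pair began 139 and 135 bases before the start. In Pole a single motif began 2 bases before the start, and in Cdk2 none of the 4 motifs was found in this window.

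Licensing and helicase genes were led by Cdc6. Its log2 signals were 5.09, 6.09, 6.48 and 6.66 with AdGFP (rats 1 to 4 in order, here and below) and 8.37, 7.78, 7.45 and 8.10 with AdHIF1a. Every AdHIF1a well lay above every AdGFP well, and the well of rat 1 was the lowest of its group with AdGFP and the highest with AdHIF1a. The mean difference was 1.85 ± 0.38 (limma adjusted p = 0.0318), and within rats it was 3.28, 1.69, 0.97 and 1.44. With rat 1 left out the call stood (1.37, adjusted p = 0.0206). It was lost with rat 2 (1.90, 0.117), 3 (2.14, 0.0588) or 4 (1.98, 0.110) left out. Its partner in loading, Cdt1, differed by 0.16 ± 0.14 (adjusted p = 0.529), with rats on both sides of 0.

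None of the 6 MCM2-7 genes, which encode the ring of the helicase, was called. An unadjusted p under 0.05 was reached by 5023 of all 18166 genes and by 1 of these 6 (Mcm6). The median difference of the 6 genes was 0.97 in rat 1 and 0.05, -0.07 and 0.05 in rats 2 to 4. Mcm6 came closest to a call. Its signals were 7.13, 7.72, 8.00 and 8.08 with AdGFP and 8.26, 8.22, 8.23 and 8.44 with AdHIF1a, a difference of 0.56 ± 0.17 (adjusted p = 0.0906; 0.0388 with the variance prior from the genes alone), and the groups did not overlap. Mcm7 was at 8.81, 9.22, 9.63 and 9.50 with AdGFP and at 9.55, 9.52, 9.53 and 9.55 with AdHIF1a, so that the AdHIF1a wells were nearly equal and sat inside the AdGFP range. Mcm5 was at 6.91, 8.13, 8.25 and 8.41 with AdGFP and at 7.88, 7.87, 7.92 and 8.17 with AdHIF1a. It was higher with AdHIF1a by 0.97 in rat 1 and lower by -0.26, -0.33 and -0.24 in rats 2 to 4. Its mean difference of 0.04 ± 0.24 turned to -0.28 without rat 1, and to -0.05 after median centring of the arrays. Mcm2, Mcm3 and Mcm4 differed by 0.97, 1.18 and 0.80 in rat 1 and by at most 0.13 in size in each of the other rats, and over 4 rats none passed the test.

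The genes that activate the loaded ring were not called either. Gins1, a GINS subunit, was at 4.8, 5.91, 5.77 and 6.18 with AdGFP and at 5.51, 5.34, 5.18 and 5.36 with AdHIF1a. It was higher with AdHIF1a in rat 1 and lower in the other 3 rats, and it was called lower only in the limma fit without rat 1 (-0.66, adjusted p = 0.0309), among the alternatives run. Cdc45 and Orc1, the largest origin recognition subunit, showed the same split, at 0.76 and 0.79 in rat 1 and between -0.19 and -0.45 in the other rats. Gins2 differed by 0.04 ± 0.14, a sign that turned after quantile normalization (-0.05) and median centring (-0.04), and Orc6 by -0.07 ± 0.08. Mcm10, a factor that helps start the helicase, was at 5.12, 5.85, 6.18 and 5.90 with AdGFP and 5.11, 5.33, 5.51 and 5.59 with AdHIF1a, and its difference of -0.38 ± 0.13 did not pass (adjusted p = 0.131). It was below 0 in 4 of 4 rats, by only -0.01 in rat 1.

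**Figure D2:**
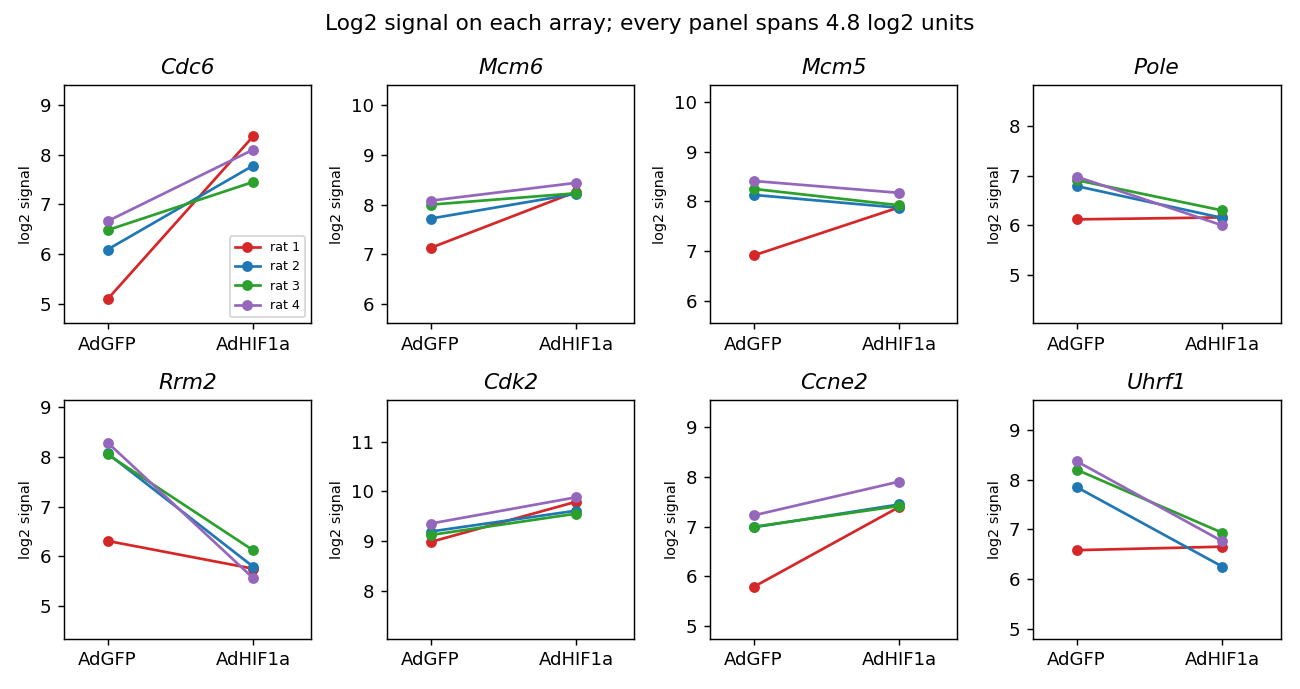
Log2 signal (vertical axis, the same span in every panel) of 8 genes in the AdGFP and AdHIF1a wells, with a line joining the wells of each rat. In 8 of 8 panels the red line of rat 1 starts below the others in AdGFP; Cdc6 rises and Rrm2 falls in 4 of 4 rats.

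None of the 10 polymerase and fork genes was called by limma. An unadjusted p under 0.05 was reached by 5023 of all 18166 genes and by 3 of these 10 (Pole, Pola1 and Prim1). Pole, the catalytic subunit of the leading-strand polymerase, had the largest difference. Its signals were 6.12, 6.79, 6.91 and 6.98 with AdGFP and 6.16, 6.15, 6.30 and 6.00 with AdHIF1a. It differed by 0.04 in rat 1 and by -0.64, -0.61 and -0.98 in rats 2 to 4, with a mean of -0.55 ± 0.17 (adjusted p = 0.107) and of -0.74 without rat 1 (adjusted p = 0.0321). It also passed with array weights (-0.65, 0.0360) and with the variance prior from the genes alone (0.0483). Pola1, the catalytic subunit of the polymerase that starts new strands, was at 7.82, 8.01, 8.26 and 8.04 with AdGFP and 7.79, 7.55, 7.82 and 7.59 with AdHIF1a, again lower in rats 2 to 4 (-0.44 to -0.46) and nearly level in rat 1 (-0.03). Its difference of -0.35 ± 0.11 did not pass (adjusted p = 0.106), and passed without rat 1 (-0.45, 0.0468) and with array weights (-0.40, 0.0401). Its partner Prim1, the primase subunit that makes the RNA primer, went the other way. It was at 9.38, 9.87, 9.87 and 9.88 with AdGFP and 9.97 to 10.24 with AdHIF1a, without overlap and higher in 4 of 4 rats, and its difference of 0.32 ± 0.11 did not pass (adjusted p = 0.119). A further probe set of Prim1 gave 0.27.

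Pold1, the catalytic subunit of the lagging-strand polymerase, differed by 0.37 ± 0.18 and was higher by 1.0 in rat 1. Pcna, the sliding clamp, was at 9.81, 10.03, 10.16 and 10.08 with AdGFP and 9.93, 9.87, 9.98 and 9.83 with AdHIF1a. Its groups overlapped, and its difference of -0.12 ± 0.10 had a 95% interval of -0.36 to 0.13. The clamp loader subunits Rfc3 and Rfc4 gave -0.23 ± 0.14 and 0.19 ± 0.18, the single-strand binding subunit Rpa2 -0.10 ± 0.15, the flap nuclease gene Fen1 -0.13 ± 0.20 and the ligase gene Lig1 -0.05 ± 0.11. In 9 of the 10 genes rat 1 was above 0, and in Pola1 it was below; in rats 2, 3 and 4 the number of genes below 0 was 7, 8 and 8.

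Nucleotide supply was represented by Rrm2 and Tyms. Rrm2 was at 6.31, 8.07, 8.05 and 8.29 with AdGFP and at 5.75, 5.79, 6.12 and 5.56 with AdHIF1a. The groups did not overlap, and the AdGFP well of rat 1 lay close to the AdHIF1a wells. Rrm2 fell by 1.88 ± 0.35 (limma adjusted p = 0.0255), with -0.56 in rat 1 and -2.28, -1.93 and -2.73 in the other rats. The call held with rat 1 omitted (-2.31, adjusted p = 0.0116) but not with rat 2 (-1.74, 0.114), 3 (-1.86, 0.0973) or 4 (-1.59, 0.105) omitted. A further, dim probe set of Rrm2 differed by -1.13. Tyms, which makes thymidylate, was at 8.14, 8.31, 8.83 and 8.40 with AdGFP and 8.22, 8.08, 8.25 and 8.07 with AdHIF1a, with overlap, and its difference of -0.27 ± 0.13 did not pass (adjusted p = 0.251).

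In the E2F and cyclin group, Cdk2 rose and the other 5 genes did not pass. Cdk2 was at 8.98, 9.19, 9.12 and 9.35 with AdGFP and 9.79, 9.61, 9.55 and 9.88 with AdHIF1a. The groups did not overlap, and the difference was 0.55 ± 0.10 (limma adjusted p = 0.0253), with 0.81, 0.42, 0.43 and 0.53 in rats 1 to 4. The call held with rat 1 omitted (0.46, adjusted p = 0.0475) but not with rat 2 (0.0961), 3 (0.0762) or 4 (0.115) omitted, nor after median centring (0.465, 0.1004). Ccne2, a cyclin E that activates Cdk2, was at 5.79, 6.99, 7.0 and 7.23 with AdGFP and 7.40, 7.45, 7.42 and 7.91 with AdHIF1a, higher in 4 of 4 rats and without overlap. Its difference of 0.79 ± 0.22 did not pass (adjusted p = 0.0737), and passed without rat 1 at 0.52 (adjusted p = 0.0479), after dim probe sets were filtered at the median (0.0488) and under the prior from the genes alone (0.0282). The other cyclin E gene, Ccne1, gave -0.23 ± 0.17, with 0.33 in rat 1 and -0.68, -0.23 and -0.33 in the other rats.

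Ccnd1, the growth factor-dependent cyclin D, was at 9.0, 9.34, 9.58 and 9.41 with AdGFP and 8.63, 8.91, 9.31 and 8.58 with AdHIF1a. It was lower in 4 of 4 rats, rat 1 included, with overlapping groups and a difference of -0.48 ± 0.12 (adjusted p = 0.0572). It passed in 5 of the alternative fits (a filter on dim probe sets at the median or the lower quartile, a trended prior, array weights and a variance prior from the genes alone; adjusted p 0.0218 to 0.0490). Uhrf1, a chromatin factor that helps copy DNA methylation, had the largest difference in the group. It was at 6.58, 7.85, 8.20 and 8.37 with AdGFP and 6.65, 6.25, 6.93 and 6.76 with AdHIF1a, so that the AdGFP well of rat 1 alone sat in the AdHIF1a range. Its difference of -1.10 ± 0.30 did not pass (adjusted p = 0.0728), and without rat 1 it was -1.49 (adjusted p = 0.0116). It also passed with the filter at the median (0.0495), with array weights (-1.32, 0.0188) and with the prior from the genes alone (0.0272). E2f1, the activating E2F, was at 6.17, 7.01, 6.81 and 7.24 with AdGFP and 6.75, 6.59, 6.67 and 7.02 with AdHIF1a, and its difference of -0.05 ± 0.18 changed sign without rat 2 or rat 4.

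The spread between the 4 rats differed between the groups. The SD over the 4 AdGFP wells was larger than over the 4 AdHIF1a wells for 27 of the 32 genes, or 84.4%, against 43.8% of all genes, with median SDs of 0.39 and 0.14 (0.14 and 0.15 over all genes). Mcm7 had an SD of 0.36 with AdGFP and 0.015 with AdHIF1a, and Mcm3 one of 0.65 and 0.14. The exceptions with the larger SD in AdHIF1a wells were Orc6, Rfc3, Rfc4, Rpa2 and Ccnd1. This gap rested on rat 1: over rats 2 to 4 the AdGFP SD was the larger for 11 of the 32 genes, or 34.4%, with medians of 0.13 and 0.15, against 43.7% of all genes, with medians of 0.11 and 0.13. By role, the median AdGFP SD over 4 rats was 0.45 for licensing and helicase genes and 0.21 for polymerase and fork genes. These spreads are a description, noticed after the values were seen.

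**Figure D3:**
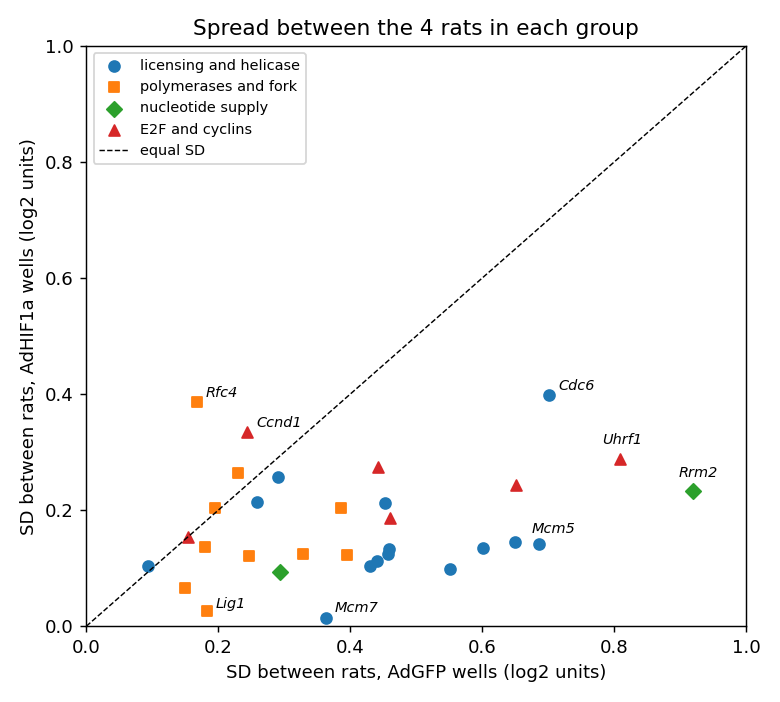
Standard deviation over the 4 rats (log2 units) in AdGFP wells (horizontal) against AdHIF1a wells (vertical), a point per gene and a symbol per role group; the dashed line marks equal SD. Of the 32 points 27 lie below the line, with Rrm2, Uhrf1 and Cdc6 farthest to the right.

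Among 93 further genes of the same pathway that were measured, from a list of 100, 8 rose and 10 fell (19.4%, against 13.4% of all genes). Of 16 licensing and origin genes, 2 rose and 0 fell. Cdc7, the kinase that fires origins, rose by 0.61 ± 0.11 (limma adjusted p = 0.0248), and Orc4, an origin recognition subunit, by 0.45 ± 0.09 (0.0269); the calls of both were lost without rat 1 (0.0531 and 0.0549), rat 2 (0.115 and 0.136) or rat 4 (0.116 and 0.130), and that of Orc4 also without rat 3 (0.0757). Of 33 polymerase and fork genes, 2 fell and 0 rose. These were Top2a, the topoisomerase that untangles sister strands (-1.32 ± 0.27), and Clspn, the checkpoint mediator claspin (-0.69 ± 0.13, to a dim 4.23). Their calls were lost without rat 2, 3 or 4 (adjusted p 0.0870 to 0.143).

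Of 14 further nucleotide genes, 3 rose and 3 fell, each in the same direction in 4 of 4 rats. Shmt2, the mitochondrial serine hydroxymethyltransferase that feeds one-carbon units, was at 9.38, 9.31, 9.63 and 9.64 with AdGFP and 10.87, 10.93, 10.78 and 11.13 with AdHIF1a. It rose 2.71-fold (1.44 ± 0.11, limma adjusted p = 0.00287), while its cytosolic counterpart Shmt1 fell by 0.65 ± 0.09. Samhd1, which breaks down deoxynucleotides, was at 9.80, 9.41, 9.58 and 9.34 with AdGFP and 8.66, 8.20, 8.18 and 7.89 with AdHIF1a, a difference of -1.3 ± 0.10 (adjusted p = 0.00264). The pyrimidine synthesis genes Cad and Umps rose by 0.66 ± 0.10 and 0.79 ± 0.11, and Ctps1, which makes cytidine triphosphate, fell by 0.64 ± 0.09. The calls of Shmt2 and Samhd1 stood without any single rat (adjusted p at most 0.0269), and those of Cad, Umps and Ctps1 were lost without rat 2 or 4 (0.0599 to 0.0765), that of Shmt1 without rat 2, 3 or 4 (0.0578 to 0.0766).

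Of 30 further genes of G1/S control, 3 rose and 5 fell. Cdkn1b, the cyclin-dependent kinase inhibitor p27, was at 9.79, 9.80, 9.60 and 9.85 with AdGFP and 11.10, 10.83, 10.64 and 10.98 with AdHIF1a. It rose 2.19-fold (1.13 ± 0.09, limma adjusted p = 0.00329), by 1.31, 1.03, 1.04 and 1.13 in rats 1 to 4, and its call stood without any single rat. Cdkn1a, the inhibitor p21, rose by 0.75 ± 0.14 and the checkpoint kinase gene Chek1 by 1.01 ± 0.14. Cdkn2b, the inhibitor p15 of the cyclin D kinases, fell by 1.87 ± 0.23, from 9.33, 9.19, 8.76 and 9.47 to 7.75, 7.27, 7.46 and 6.79. The inhibitors thus moved in both directions. Tfdp2, a partner of E2F factors, fell by 0.77 ± 0.11. Myc differed by 0.18 ± 0.13 (adjusted p = 0.460).

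Ccna2, Mki67 and Cdk1, of the same list, fell, and in each the AdGFP well of rat 1 was the lowest of its group. That well was the lowest for 67 of the 93 further pathway genes, or 72.0%. Ccna2, cyclin A, was at 6.18, 7.54, 7.17 and 7.97 with AdGFP and 5.64, 5.01, 5.66 and 6.03 with AdHIF1a, a fall of 1.63 ± 0.32 (limma adjusted p = 0.0279). Mki67 was at 6.54, 7.85, 7.90 and 8.26 with AdGFP and 6.26, 5.62, 6.35 and 6.14 with AdHIF1a, and Cdk1 fell by 1.28 ± 0.22. In rat 1 these 3 genes differed by -0.54, -0.28 and -0.53, the least of the 4 rats. The calls of Ccna2, Mki67, Cdk1, Cdkn1a and Tfdp2 were each lost without rat 2, 3 or 4 (adjusted p 0.0588 to 0.161), that of Chek1 without rat 2 or 4 (0.0630 and 0.0672) and that of Cdkn2b without rat 2 (0.0526).

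**Figure D4:**
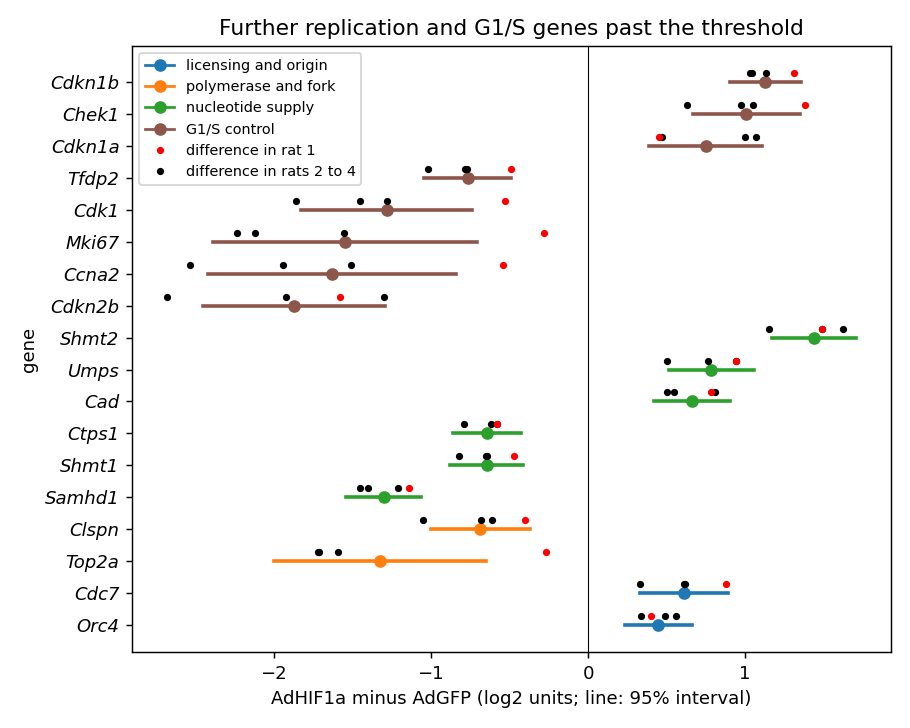
Differences (AdHIF1a minus AdGFP, log2 units, horizontal) of the 18 further pathway genes past the threshold, by list: large points are means of 4 rats, lines 95% intervals of the limma fit, and small points above them the single rats, rat 1 in red. Shmt2, Cdkn1b, Samhd1 and Cdkn2b lie at least 1 unit from 0 in 4 of 4 rats. Mki67, Top2a, Ccna2 and Cdk1 lie nearest to 0 in rat 1, as do Samhd1, Clspn, Shmt1, Tfdp2 and Cdkn1a.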

How the data were processed

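The authors deposited log2 signals per probe set, to 2 decimals, for 36685 probe sets on 8 arrays, made with Affymetrix Expression Console per the submitters' processing notes. Its algorithm and version, and a genome build, are not stated in any source used here, and the files hold no detection calls. Values ran from 1.42 to 13.57, and the log2 scale was taken from that range. Nothing further was scaled. A common scale hides a shift of all transcripts, and folds of low signals are compressed. The number of arrays limits the precision.

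Of the probe sets, 18511 carried 1 gene symbol, 575 several and 17599 none. The gene's probe set with the highest mean stood for it (18166 genes). limma 3.58.1 in R 4.3.3 (lmFit, eBayes) was fitted to all probe sets with rat as a fixed term, and p-values were adjusted over the 18166 genes; the script was checked on simulated data. Estimating the variance prior from the genes alone was an alternative added after the data were seen. By the series' design each rat gave 1 well to each group. The sample titles number the wells as replicates, and that number was taken as the rat. Deviations of wells with the same number correlated across genes at 0.18 to 0.26, and those with different numbers at -0.22 to 0.08. The other alternatives were no block, a random block, quantile normalization, median centring, filters on dim probe sets, a trended and robust prior, array weights, the mean of a gene's probe sets, an adjusted p under 0.01 and the omission of each rat.

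The 35 genes and all other lists were chosen with earlier results of these data known. Values on every array were given for each called gene among the 35 and for those with the largest difference or the highest mean of each role group. Array values of other genes were added after they were seen. Of the further pathway genes, those called (at most 3 per list and direction) and Mki67, Cdkn1a, Cdkn1b, Ccna2 and Myc were named. The 4 promoter windows were chosen after the values were seen.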

Additional observations from a re-analysis of the deposited data

Results flagged for a closer look

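For each of the 32 genes, the 4 AdGFP values, the 4 AdHIF1a values and the 4 within-rat differences were searched for a value whose gap to its neighbour was large against the group's range (above Dixon's 95% limit for 4 values). Chance meets it in about 1 of 20 groups, and 11 of 96 groups met it. The groups of a gene share arrays, so these are not independent. The within-rat difference of rat 1 stood above the others in 6 genes: Mcm2 at 0.97 (others -0.09 to 0.05), Mcm3 at 1.18 (-0.02 to 0.05), Mcm5 at 0.97 (-0.33 to -0.24), Gins1 at 0.71 (-0.82 to -0.57), Rfc3 at 0.22 (-0.42 to -0.33) and Pola1 at -0.03 (-0.46 to -0.44). The AdGFP signal of rat 1 stood below the others in 3 genes: Prim1 at 9.38 (9.87 to 9.88), Rrm2 at 6.31 (8.05 to 8.29) and Ccne2 at 5.79 (6.99 to 7.23). The AdHIF1a signal of rat 4 stood above the others in 2 genes: Mcm5 at 8.17 (7.87 to 7.92) and Ccne2 at 7.91 (7.40 to 7.45).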

How the results depend on the processing

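The counts of calls depended on the rats and on the variance prior. All genes called were 2443, 561 to 2006 with a rat left out, 656 at an adjusted p under 0.01 and 3674 with the variance prior from the genes alone. Of the 32 genes, 2 were called higher and 1 lower. With a rat left out these counts ran from 0 to 3 and from 0 to 5. At an adjusted p under 0.01 both were 0 (limma). In the main fit 11 of the 32 genes had an unadjusted p under 0.05, against 5023 of all 18166 genes. Median centring left 1 higher (Cdk2 was lost), with 635 higher over all genes, against 1032 in the main fit. The lower calls were 3 and 2 with the filters at the median and the lower quartile. They were 2 with the trended and robust prior and 5 with array weights. Over all genes the lower calls were 1411 in the main fit, and 1859 of 11343 and 1576 of 15319 with these filters. They were 1760 and 1933 of 18166 with the trended prior and array weights. The prior from the genes alone gave 4 higher and 4 lower, against 1576 and 2098 over all genes. Without the rat as a replicate block 1279 genes were higher and 1672 lower, and the members called were again 2 higher and 1 lower; the block changed the call of none of Cdc6, Cdk2 and Rrm2. Cdc6 and Rrm2 were called in 11 of 14 alternative fits and Cdk2 in 10. Signs turned only in genes that were not called: Gins2 with quantile normalization (-0.0512) and median centring (-0.04), and Mcm5 with median centring (-0.0475) and array weights (-0.1156). With a rat left out, differences ran from -0.0233 to 0.33 for Mcm2, -0.2767 to 0.1567 for Mcm5, -0.2933 to 0.09 for Cdc45, -0.09 to 0.18 for Gins2, -0.3333 to 0.08 for Orc1, -0.2267 to 0.0467 for Rpa2, -0.14 to 0.0267 for Lig1 and -0.26 to 0.0733 for E2f1. The median of the 32 genes ran from -0.2117 to 0.0317 with a rat left out. The cause was not tested; a fit with a rat left out has fewer samples. With 4 rats and no detection calls, small differences of dim genes could not be resolved.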
